A study of Mus musculus with 40 samples.

Results

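The genes described here are 35 markers of the cells that build brain blood vessels, taken by symbol from the 24060 symbols of a striatal count table. They comprise 24 genes of endothelial cells and 11 genes of mural cells, of which 8 mark pericytes and 3 mark smooth muscle. All 35 symbols were found, and none was at 0 in any library. RNA was measured in 40 libraries of mouse striatum in 10 groups of 4. The question put to them was how far vessel RNA was removed when ribosomes of another cell type were pulled down, and whether vessel genes differed in mice without SAPAP3, the postsynaptic scaffold protein encoded by Dlgap3.

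In RiboTag purification a virus places an HA-tagged ribosomal protein, Rpl22-HA, in 1 chosen cell type, and the tagged ribosomes are then immunoprecipitated with the RNA they carry. The IP is that fraction, and the input is a part of the lysate taken before it. The control input and control IP libraries came from mice labelled Control, strain C57/BL6NTac, and the virus is not given in their labels. They were read as the astrocyte RiboTag, driven by the gfaABC1D promoter, from the methods and from 10 astrocyte markers, all of which rose in the IP (median log2 fold change 3.02). The syn input and syn IP libraries came from WT mice of the same strain with the neuron RiboTag, driven by hSyn1. All 10 neuron markers had higher values in that IP than in its input, but only 3 of them passed the test with its fold limit. The sapap3 WT and sapap3 KO input and IP libraries came from C57/BL6J and C57/BL6J-Dlgap3 KO mice, and the cell type of their RiboTag is not named. Per the methods, SAPAP3 KO mice received the RiboTag virus at an older age than C57/BL6NTac mice did. All 10 astrocyte markers also rose in those IPs, with medians of 2.30 in WT and 2.39 in KO. Of all genes tested, 10.9% rose there in WT and 12.3% in KO. In the same IPs 4 of 10 oligodendrocyte markers rose in each genotype (medians 0.75 and 0.77), as did 4 of 7 markers of choroid plexus and ependyma (medians 1.91 and 2.02), and of 6 markers of oligodendrocyte precursors 1 rose in WT and 4 in KO. The part of these cells in the changes of the members was not tested. The bulk WT and bulk KO libraries held RNA of whole striatum with no RiboTag step, and the labels give strain C57/BL6NTac for both genotypes. Nothing says that the mice of the bulk libraries received a virus, and 1 animal number stands in the labels of both bulk WT replicate 1 and bulk KO replicate 1.

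Brain endothelial cells line the vessels and are sealed to each other by tight junctions, which together with efflux pumps and the near absence of transcytosis make the blood-brain barrier. Pericytes sit on the capillaries within the same basement membrane, and smooth muscle cells wrap the arterioles. Astrocyte endfeet touch the outer side of that membrane, so the RNA of the 3 cell types lies within a very short distance in the tissue. Neither the gfaABC1D nor the hSyn1 promoter is meant to be active in vessel cells.

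Libraries held between 23438112 and 84109800 counts, with the inputs of the control and sapap3 cohorts at the low end. Values are given as CPM, the counts of a gene scaled to a common library size in the usual unit. A gene was called between IP and input, or between input and bulk, when the edgeR quasi-likelihood test gave a Benjamini-Hochberg adjusted p below 0.05 over all genes tested and the log2 fold change was past 1 in either direction. Between genotypes, and for differences between fold changes, the adjusted p alone was used. Of the members, 7 had fewer than 10 counts in at least 1 library, all of these in IPs except for Anpep in the control inputs. The lowest count was 2, for Icam2 and Sox18 in IPs, so counting error alone is large there. Bulk WT replicate 4 was the lowest of its group for summed endothelial and mural RNA and for Dlgap3, and sapap3 WT input replicate 1 was the highest of its group for all 3, so values without them are given where results rest on them. In tissue RNA, fewer cells of a type and less RNA per cell cannot be told apart.

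The sequences that bear most on the counts are those of the Ly6 genes, small surface proteins of brain endothelium that lie in a family of near copies. Ly6c1 and Ly6c2 transcripts were 97.9% identical where they aligned, which was 98.9% of a Ly6c1 transcript. Ly6a matched Ly6c1 at 96.6%, over 78.3% of a Ly6a transcript. How reads that align equally well to several genes were handled is not given in the sources used here, so the division of reads among them is uncertain. The first 150 bases of each open reading frame, from GENCODE M21 transcripts, are shown with capitals marking the bases that differ from Ly6c1.
Ly6c1: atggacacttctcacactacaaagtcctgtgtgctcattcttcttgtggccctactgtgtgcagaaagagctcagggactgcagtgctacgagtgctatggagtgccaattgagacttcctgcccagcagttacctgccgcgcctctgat
Ly6c2: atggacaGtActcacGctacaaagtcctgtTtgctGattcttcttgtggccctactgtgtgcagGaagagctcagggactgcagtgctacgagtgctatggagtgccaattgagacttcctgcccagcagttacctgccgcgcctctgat
Ly6a: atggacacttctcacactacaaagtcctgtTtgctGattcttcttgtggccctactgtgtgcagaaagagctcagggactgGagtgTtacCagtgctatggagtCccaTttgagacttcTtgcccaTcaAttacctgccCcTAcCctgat
Over these bases Ly6c2 differed from Ly6c1 at 6 positions and Ly6a at 14. Over the whole frame of 396 bases Ly6c1 and Ly6c2 differed at 9. Abcb1a, the gene of the P-glycoprotein efflux pump, had near matches as well. A transcript of Abcb1b that keeps an intron was 98.4% identical over 64.4% of an Abcb1a transcript. Gm42686 was 100% identical over 91.5% of one.

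Promoters of 4 genes are shown because the genes went opposite ways in the astrocyte IP, 2 down and 2 up. Each is the stretch from 150 to 31 bases before the RefSeq start, build GRCm38.p6, written on the strand of the gene. Capitals mark AGGAAG or its reverse complement CTTCCT, a core that ETS factors such as the endothelial regulator Erg bind.
Flt1, chr5:147726042-147726161, minus strand: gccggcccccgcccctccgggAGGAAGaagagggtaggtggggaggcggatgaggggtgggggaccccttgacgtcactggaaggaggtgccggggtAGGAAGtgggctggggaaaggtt
Abcb1a, chr5:8566941-8567060, plus strand: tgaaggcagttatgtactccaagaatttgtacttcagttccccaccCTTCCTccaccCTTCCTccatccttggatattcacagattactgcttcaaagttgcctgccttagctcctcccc
Notch3, chr17:32166921-32167040, minus strand: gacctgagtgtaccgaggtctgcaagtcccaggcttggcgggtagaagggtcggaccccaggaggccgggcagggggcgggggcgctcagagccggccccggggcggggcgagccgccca
Mfsd2a, chr4:122961219-122961338, minus strand: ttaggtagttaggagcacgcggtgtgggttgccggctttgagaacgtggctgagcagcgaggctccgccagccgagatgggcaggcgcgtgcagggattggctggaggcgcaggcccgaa
In the full window of 250 bases before and 50 after the start, the motif was found in 10 of the 23 members with a listed promoter (43.5%), beside 38.4% of 27025 symbols. These shares are close, and a match of letters is not a bound site. Among members that rose in an IP with raised astrocyte markers, 4 had a listed promoter and 0 of these held the motif. The stretches shown were picked as examples, and a link of the motif with direction in the IP was not tested.

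To set the scale between genes, levels in bulk WT were also divided by exon length and are given as FPKM. Vtn, a secreted matrix protein made by brain pericytes, was highest at 23.7 ± 1.77 FPKM (mean ± SD, n = 4). The lipid transfer protein gene Pltp followed at 14.0 ± 2.77 and the lipid transporter gene Mfsd2a at 11.2 ± 1.5. The tight junction gene Cldn5 reached 6.02 ± 1.91 FPKM, and the smooth muscle myosin gene Myh11 was lowest at 0.165 ± 0.047. Of the members, 8 were above 5 FPKM and 23 above 1. Neighbours in this order mostly overlapped in their range over the 4 libraries. Among 34 neighbouring pairs, only Vtn and Pltp, and Icam2 and Sox17, did not.

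Vessel RNA was strongly reduced in the astrocyte IP, but not evenly. Of 34 members tested in the control cohort, 27 were lower in the IP than in the input and 4 were higher. Over all 15476 genes tested, 13.5% were called lower and 13.4% higher (2085 and 2072 genes, or 2789 and 1656 when libraries were scaled to their totals in place of edgeR's TMM scaling). The median log2 fold change was -2.33 over the members and -0.02 over all genes tested. Of the 24 endothelial genes 21 were lower and 1 was higher, with a median of -3.39. Of the 10 mural genes tested 6 were lower and 3 higher, with a median of -1.28. Anpep had too few counts to be tested in this cohort.

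The endothelial genes with the largest decreases were Icam2, Erg and Ly6c1. Icam2, an adhesion molecule of the endothelial surface, fell by 4.16 on the log2 scale (SE 0.28, adjusted p = 8.5e-08), on 11 counts over the 4 control IPs and 140 over the 4 inputs. Scaled to library totals, the pooled input level was 22.0 times that of the IP, with an exact 95% counting interval of 11.9 to 45.0. Erg, the ETS factor that keeps endothelial identity, also changed by -4.16 (SE 0.23, adjusted p = 1.4e-08), and Ly6c1 by -4.15 (SE 0.15, adjusted p = 5.1e-10). Ly6c1 stood at 17.3, 13.5, 14.9 and 17.8 CPM in the control inputs and at 0.798, 0.542, 0.723 and 0.999 CPM in the IPs of the same numbers. No IP library came near the lowest input.

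Cldn5, the claudin that dominates the brain endothelial tight junction, showed the same separation. Its inputs held 12.9, 14.1, 18.6 and 17.1 CPM, and its IPs 0.735, 0.716, 0.765 and 1.29 CPM. The log2 fold change was -3.94 (SE 0.19, adjusted p = 3.9e-09), and control IP replicate 4 was the highest of the IPs. The other junction and adhesion genes called in this cohort ranged from -4.16 for Icam2 to -2.08 for Esam, with Cdh5, Pecam1 and Emcn between them. Ocln, a tight junction protein also made by other brain cells, changed by only -0.58 and was not called.

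All 5 endothelial receptors fell. The Tie receptors Tie1 and Tek changed by -3.77 and -3.52, the VEGF receptors Flt1 and Kdr by -2.92 and -2.13, and the TGF-beta co-receptor Eng by -2.88. Flt1 was at 28.5, 23.3, 29.6 and 30.0 CPM in the control inputs and at 3.32, 3.12, 2.98 and 3.22 CPM in the IPs. The spread between IP replicates was small beside the distance to the inputs. The transcription factors Erg, Sox17 and Sox18 fell as a set of 3, with Sox17 at -4.06 and Sox18 at -3.88, and summed to 7.24 to 9.26 CPM in inputs and 0.294 to 0.62 CPM in IPs.

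The transport genes split. The efflux pump gene Abcb1a (-3.36) and the organic anion transporter gene Slco1a4 (-3.56) fell, whereas Mfsd2a, the carrier of lipid-bound omega-3 fatty acids whose product restrains transcytosis in brain endothelium, rose by 1.66 (SE 0.11, adjusted p = 7.4e-08). Mfsd2a was at 19.5, 18.6, 15.4 and 16.5 CPM in the inputs and at 49.6, 56.4, 42.3 and 40.7 CPM in the IPs. Every IP was above every input. Pltp changed by 0.81 (SE 0.12, adjusted p = 8.9e-05), short of the fold limit, and 27.4% of its exon bases overlap Ctsa on the other strand. Ctsa itself changed by 0.23 in this cohort. Whether counting used the strand is not stated, so Pltp reads are uncertain.

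The 5 surface and secreted genes all fell, with a median of -1.64. Vwf, the clotting factor stored by endothelium, changed by -2.50, Itm2a by -1.64 and Egfl7 by -1.17. Ly6a changed by -1.14 (SE 0.36, adjusted p = 0.013), from 17.7, 11.9, 16.8 and 28.2 CPM in the inputs to 7.00, 3.41, 5.25 and 13.4 CPM in the IPs. Its ranges overlapped, since IP replicate 4 lay above input replicate 2. The value without control input replicate 4 was -0.87 and without control IP replicate 2 -0.89, and it was just short of the limit without control IP replicate 3, so none of these settings gave a call.

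Among the mural genes, Higd1b, a pericyte gene of the mitochondrial HIG1 family, had the largest decrease at -3.03 (SE 0.23, adjusted p = 2.8e-07). Kcnj8 and Abcc9, the subunits of the KATP channel of pericytes, which lie next to each other on chromosome 6, changed by -2.16 and -1.25. Vtn changed by -1.90 and Rgs5, a regulator of G protein signalling, by -1.46. The opposite direction was taken by Notch3, the receptor that matures mural cells, at 2.31 (SE 0.05, adjusted p = 8.1e-12), and by Pdgfrb, the receptor that recruits pericytes to vessels, at 1.45 (SE 0.05, adjusted p = 4.1e-10). Notch3 held 14.5, 14.0, 16.1 and 15.4 CPM in the inputs and 64.3, 63.8, 61.8 and 64.9 CPM in the IPs. Pdgfrb held 28.8, 26.4, 30.9 and 28.7 CPM in the inputs and 67.4, 65.8, 71.4 and 65.1 CPM in the IPs. For both genes each of the 4 IPs was above each of the 4 inputs.

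Of the smooth muscle genes, the actin gene Acta2 changed by 1.01 (SE 0.20, adjusted p = 0.00065), with overlapping library values of 2.25 to 4.17 CPM in inputs and 3.95 to 6.66 CPM in IPs. Its call was at the limit, with 0.97 without control input replicate 1, 0.87 without input replicate 2, 0.93 without IP replicate 1 and 0.97 without IP replicate 3. Myh11 changed by -1.31. Tagln changed by -0.20 (SE 0.22, adjusted p = 0.42) and was the tested member nearest to 0, with Ocln and Pltp next. As 85.8% of the exon bases of Tagln overlap Pcsk7 on the other strand, its counts are the least certain of the set, and Pcsk7 changed by -0.83.

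**Figure D1:**
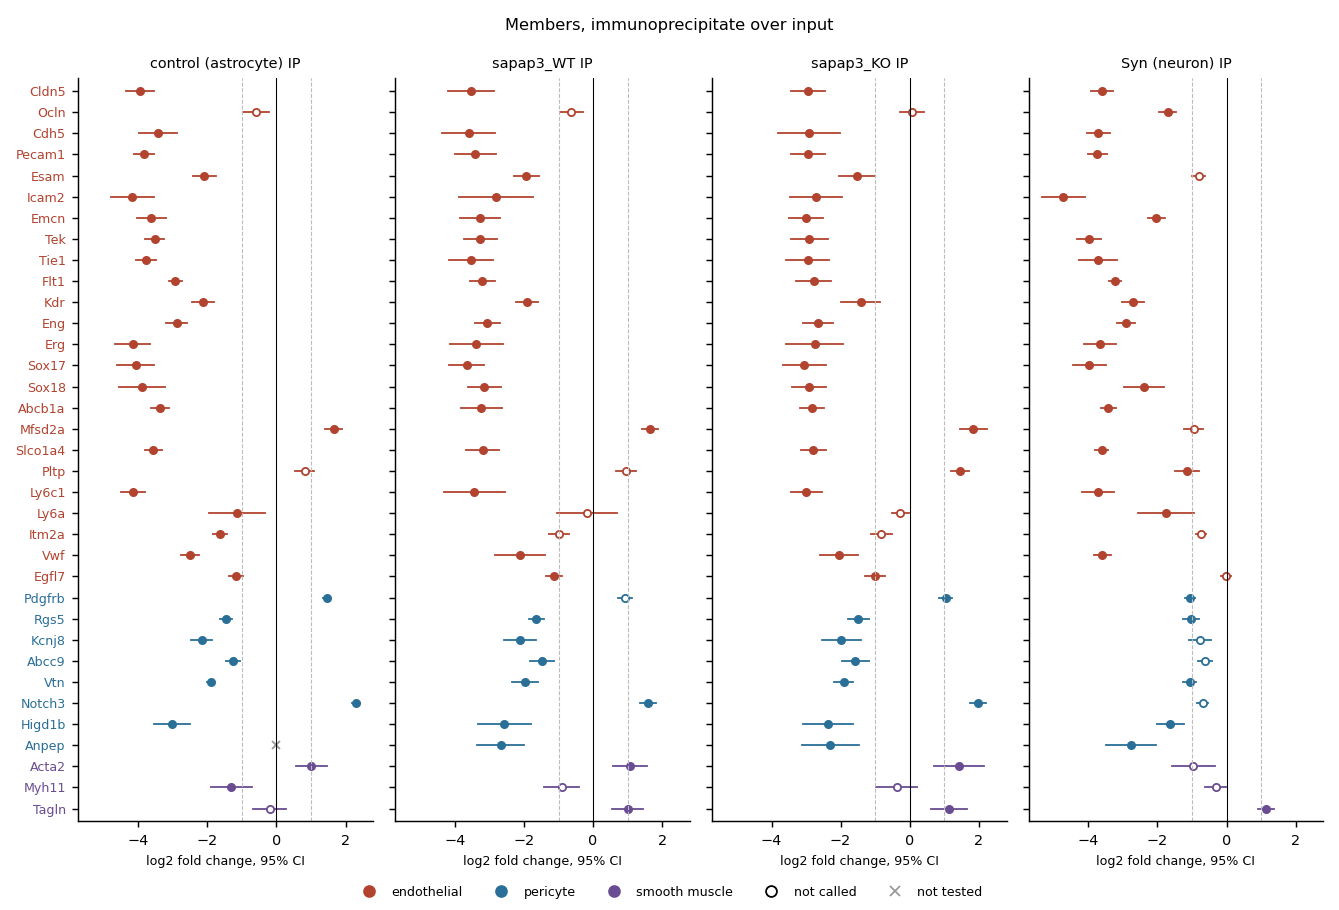
Log2 fold change of IP over input for each member, by role, in the 4 RiboTag cohorts, with 95% intervals. The endothelial genes center on medians of -3.39 (control), -3.32 (syn), -3.17 (WT) and -2.77 (KO), whereas Notch3, Pdgfrb, Mfsd2a and Acta2 lie above 0 in the control and both sapap3 cohorts and below 0 in the syn cohort.

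The members that went up altered the make-up of the summed member counts in the astrocyte IP. Which cells their RNA came from was not tested. Summed over the 24 endothelial genes, the control inputs held 342, 293, 346 and 366 CPM and the IPs 161, 138, 153 and 152 CPM. Mfsd2a and Pltp made up 15.1 to 19.1% of that sum in the inputs and 65.4 to 72.4% in the IPs. The other 22 endothelial genes went from 237 to 311 CPM down to 39.2 to 52.5 CPM. Summed over the 11 mural genes, inputs (153 to 163 CPM) and IPs (163 to 171 CPM) were close, while Pdgfrb and Notch3 went from 26.4 to 29.4% of the sum to 76.0 to 79.5%.

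**Figure D2:**
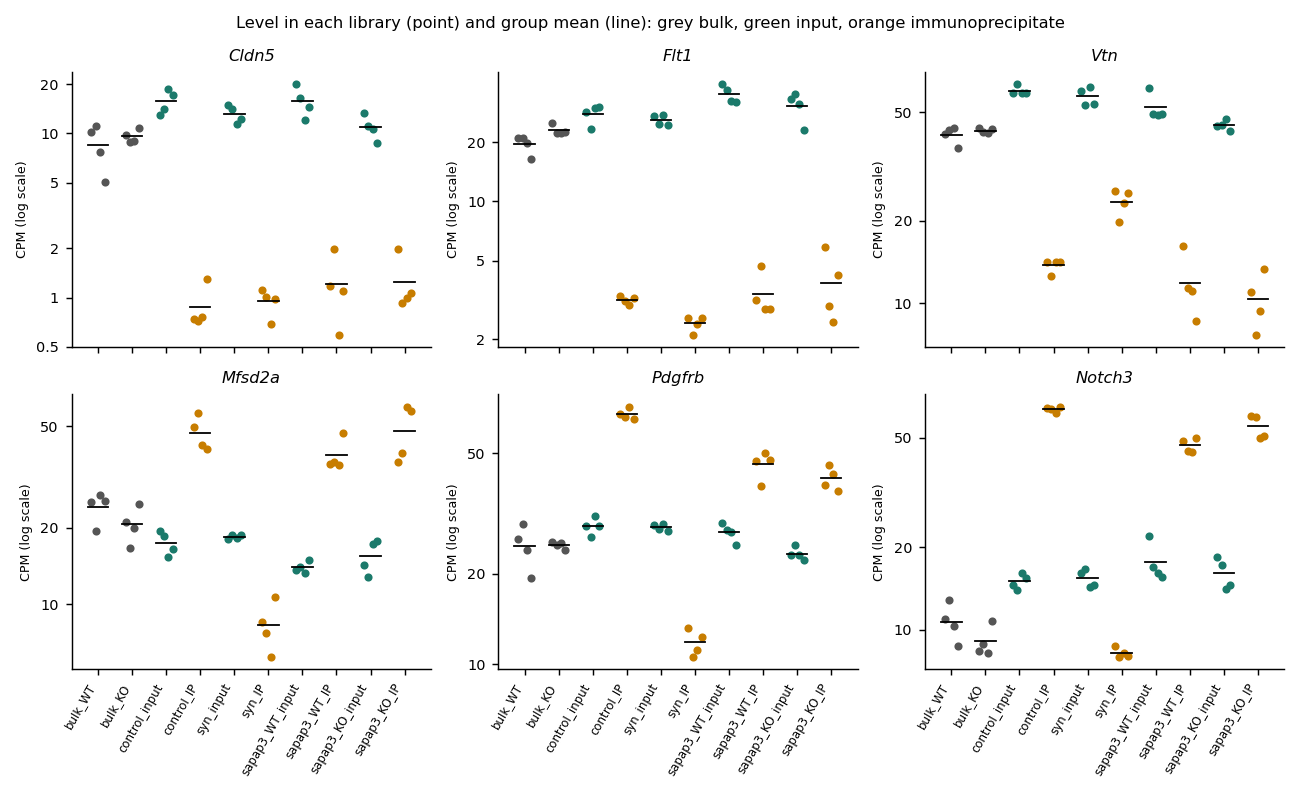
CPM of 6 members in each library of the 10 groups on a log axis, 1 point a library, with a line at the group mean. In the control IPs the points of Cldn5 reach at most 1.29 CPM, far below the inputs, while those of Notch3 start at 61.8 CPM, far above them.

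The neuron IP lost vessel RNA as well, and there only 1 member rose. Of 35 members tested, 25 were lower in the syn IP than in its input and 1 was higher, beside 15.8% lower and 0.42% higher over all 16198 genes. The median was -2.03 over members and 0.00 over all genes. Of the endothelial genes 20 of 24 were lower, with a median of -3.32, and of the mural genes 5 of 11 were lower. The largest endothelial decreases were those of Icam2 (-4.72, SE 0.28, adjusted p = 3.7e-07, 12 counts in the 4 IPs against 256 in the inputs), Tek (-3.99, SE 0.15, adjusted p = 4.7e-08) and Sox17 (-3.97, SE 0.21, adjusted p = 2.4e-07).

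The largest mural decreases in the syn IP were Anpep (-2.77, SE 0.32, adjusted p = 3.0e-05), Higd1b (-1.63, SE 0.18, adjusted p = 1.8e-05) and Vtn (-1.07, SE 0.09, adjusted p = 2.5e-06). Anpep encodes the pericyte surface peptidase CD13. Vtn lost its call without syn IP replicate 2 (-0.99), Rgs5 without syn IP replicate 2 or 4 (-0.97 and -0.98) and Pltp without syn IP replicate 3 (-0.99), all 3 at the fold limit. Egfl7, a secreted vessel factor whose gene also hosts a microRNA, was at 23.3, 23.3, 22.9 and 21.3 CPM in the inputs and 19.1, 18.0, 20.4 and 20.2 CPM in the IPs, which after scaling gave -0.02 (SE 0.06, adjusted p = 0.80). Myh11 (-0.32, SE 0.13, adjusted p = 0.055) and Abcc9 (-0.64, SE 0.09, adjusted p = 0.00013) were the next nearest to 0.

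Tagln was the gene that rose in the neuron IP, by 1.15 (SE 0.10, adjusted p = 5.2e-06). It stood at 6.51, 6.88, 5.35 and 6.45 CPM in the syn inputs and 10.1, 13, 12.1 and 13.3 CPM in the IPs, with no overlap. Pcsk7, on the opposite strand, changed by -0.24. When libraries were scaled to their totals, Tagln was at 0.94 and not called, so no member passed upward in that IP.

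In the sapap3 cohort most members were lower in the IP as well. In WT mice 25 of 35 members were lower and 4 higher in the IP, beside 12.1% and 10.9% of all genes (1887 and 1703, or 2434 and 1396 by library totals), with a member median of -2.12 against -0.03 over all genes. In KO mice 25 were lower and 6 higher, beside 11.5% and 12.3% (1798 and 1915, or 2450 and 1554 by library totals), with a median of -2.05 against 0.00. The endothelial medians were -3.17 in WT and -2.77 in KO, and the mural medians -1.48 and -1.49. Endothelial genes were lower in 19 of 24 cases in both genotypes, and mural genes in 6 of 11.

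In the WT mice the leading endothelial decreases were Sox17 (-3.66, SE 0.23, adjusted p = 1.1e-06), Cdh5 (-3.59, SE 0.34, adjusted p = 1.5e-05) and Tie1 (-3.54, SE 0.28, adjusted p = 5.2e-06). In KO mice they were Sox17 (-3.05, SE 0.28, adjusted p = 3.4e-06), Emcn (-3.00, SE 0.22, adjusted p = 6.4e-07) and Ly6c1 (-2.99, SE 0.20, adjusted p = 3.7e-07). The mural genes Anpep, Higd1b and Kcnj8 led in WT at -2.67, -2.57 and -2.12, and Higd1b, Anpep and Kcnj8 led in KO at -2.37, -2.30 and -1.98. Cdh5 encodes the cadherin of endothelial adherens junctions and Emcn a sialomucin of capillaries and veins.

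Notch3 rose by 1.59 in WT and by 1.98 in KO (SE 0.11 in both, adjusted p = 1.8e-06 and 6.9e-08), Mfsd2a by 1.64 and 1.84, and Acta2 by 1.07 and 1.42. Notch3 went from 21.9, 16.9, 16.1 and 15.6 CPM to 48.6, 44.7, 44.5 and 49.9 CPM in WT, and from 18.4, 17.2, 14.1 and 14.6 CPM to 60, 59.6, 49.9 and 50.7 CPM in KO. In both genotypes no IP overlapped an input. Pdgfrb changed by 0.92 in WT, short of the limit, and by 1.04 in KO, where its value without KO IP replicate 2 was 0.98. Pltp changed by 0.95 in WT and rose by 1.45 in KO.

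Single libraries moved several members across the fold limit in these IPs. Acta2 in WT was at 0.97 without WT input replicate 4 and 0.92 without WT IP replicate 4. Tagln in WT, at 1.00, was not called without WT input replicates 2 or 3 or WT IP replicates 2 or 4, where it was at 0.85 to 0.98. Tagln in KO was at 0.89 without KO IP replicate 3. Egfl7 in KO, at -1.01, fell short without KO input replicate 1 or KO IP replicates 2, 3 or 4, the least at -0.91. With the animal as a block, Tagln in WT was at 0.98 and not called.

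Ly6a was 1 of the 5 endothelial genes that were not called lower in either genotype, beside Ocln, Itm2a, Mfsd2a and Pltp. It changed by -0.17 (SE 0.39, adjusted p = 0.71) in WT and -0.28 (SE 0.11, adjusted p = 0.04) in KO, so it was not called in either. The WT inputs held 38.6, 34.9, 14.7 and 36.3 CPM and the WT IPs 32.4, 26.9, 8.97 and 29.6 CPM. Animal number 3 was the low one in both fractions. Without its IP library, but with its low input kept, the change was 0.09. In CPM each WT IP was below the input of the same animal. After Ly6a, the members nearest to 0 in WT were Ocln (-0.63) and Myh11 (-0.91). In KO they were Ocln (0.07), Ly6a and Myh11 (-0.38).

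Across the 4 cohorts, 20 members were lower in every IP, 17 of them endothelial, beside 5.67% of the 15156 genes tested in all 4. The mural ones were Rgs5, Vtn and Higd1b. Mfsd2a, Notch3 and Acta2 were the members that rose in all 3 IPs with raised astrocyte markers, as did 9.70% of all genes, and Pltp, Pdgfrb and Tagln rose in at least 1 IP. The cohorts have separate inputs, and each was tested on its own.

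The difference between astrocyte and neuron IPs was tested as the change of IP over input in the control cohort minus that in the syn cohort. All 35 members were tested, 11 were higher in the astrocyte cohort and 12 lower, beside 34.3% higher and 35.8% lower over all 16371 genes, so the share of members called was near the background. The cohorts are different mice that were processed apart. Xist RNA was at 189 to 281 CPM in the syn inputs and at most 0.0405 CPM in the control inputs, so sex, cohort and RiboTag cannot be told apart.

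Notch3 had the largest difference at 3.00 (95% interval 2.83 to 3.17, adjusted p = 4.6e-15). In the syn cohort it was at 16.1, 16.6, 14.3 and 14.6 CPM in inputs and 8.73, 7.97, 8.24 and 8.05 CPM in IPs, so the direction of its change was opposite to that in the astrocyte cohort. Mfsd2a differed by 2.61 (2.23 to 3.00, adjusted p = 9.0e-10), Pdgfrb by 2.52 (2.33 to 2.71, adjusted p = 1.4e-13) and Pltp by 1.96 (1.501 to 2.42, adjusted p = 3.9e-07). Mfsd2a stood at 18.1, 18.7, 18.3 and 18.7 CPM in the syn inputs and 8.55, 7.71, 6.23 and 10.7 CPM in the IPs. Each of these genes was above its input in all 4 control IPs and below it in all 4 syn IPs. Acta2 (1.98), Anpep (1.99), Ocln (1.12), Vwf (1.10), Kdr (0.57), Tek (0.47) and Flt1 (0.30) were the other members that were higher. The Anpep value rests on 6 to 16 counts in the control inputs and 7 to 11 in the control IPs, too few to be tested in that cohort alone. With the replicate number as a block Tek lost its call (0.47, adjusted p = 0.061) and Ly6a gained one (0.60, adjusted p = 0.0024, against 0.63 and 0.34 without it).

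Other vessel genes were kept more in the neuron IP. Emcn differed by -1.59 (-2.04 to -1.14, adjusted p = 3.4e-06), Kcnj8 by -1.38 (-1.80 to -0.96, adjusted p = 9.5e-06), Esam by -1.27 (-1.64 to -0.91, adjusted p = 3.8e-06) and Egfl7 by -1.15 (-1.38 to -0.92, adjusted p = 5.6e-08). Itm2a (-0.90, adjusted p = 2.5e-06) and Vtn (-0.83, adjusted p = 2.7e-06) followed. Vtn was at 59.7, 53.0, 61.7 and 53.7 CPM in the syn inputs and 25.8, 19.8, 23.2 and 25.3 CPM in the syn IPs, and at 58.6 to 63.1 CPM in the control inputs and 12.6 to 14.1 CPM in the control IPs. The inputs overlapped between cohorts and the IPs did not. Sox18, Higd1b, Tagln, Myh11, Abcc9 and Rgs5 were also lower, by 1.49 at most.

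The remaining 12 members had no called difference, among them Cldn5 (-0.34, 95% interval -0.88 to 0.19), Abcb1a (0.05, -0.27 to 0.38), Slco1a4 (0.05, -0.25 to 0.35) and Tie1 (-0.06, -0.72 to 0.60). These junction, transport and receptor genes were thus depleted to values whose difference between the IPs of astrocytes and neurons lies within those intervals.

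**Figure D3:**
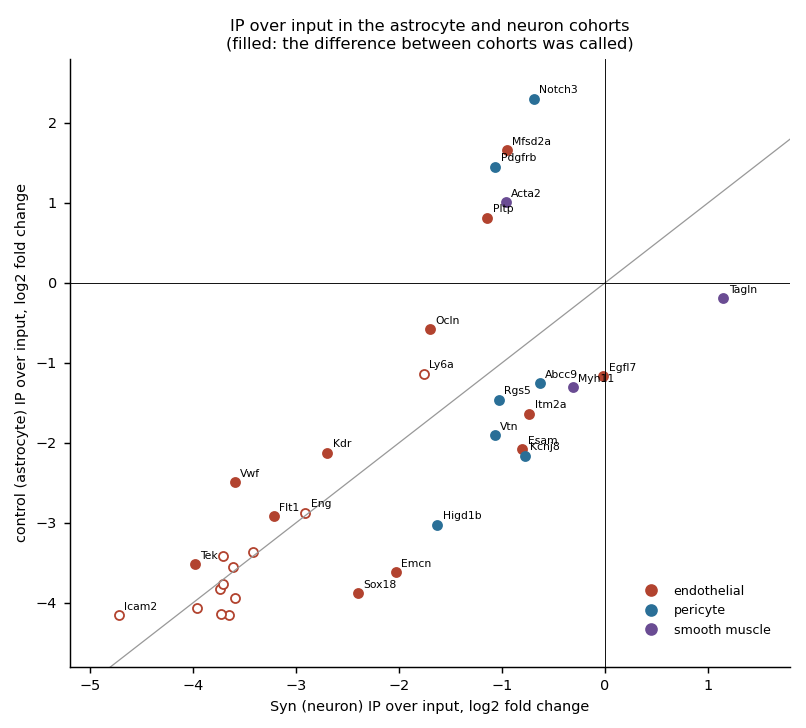
Log2 fold change of IP over input in the control cohort against that in the syn cohort, 1 point a member, with the line of equal change. Notch3, Pdgfrb, Mfsd2a, Pltp and Acta2 lie far above the line, and Egfl7, Emcn, Esam and Kcnj8 lie below it.

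Inputs and bulk tissue differ in that inputs passed through the RiboTag lysis and, per the methods, a virus injection, and they also differ in cohort and depth. The sapap3 inputs differ from bulk in labelled strain as well. The part of strain or age in these values was not tested. The 3 comparisons with bulk WT share the same 4 bulk libraries. Few vessel genes were past the fold limit. In the control inputs 2 members were higher and 1 lower of 35, beside 6.05% and 3.06% of all genes. In the syn inputs 1 member was called, beside 4.82% of all genes in either direction, in the sapap3 WT inputs 3 (5.16%) and in the KO inputs against bulk KO 2 (5.15%), each of them higher than in bulk. Member medians were 0.44, 0.29, 0.51 and 0.01. Of 10 microglial markers 5, 4, 5 and 5 were higher than in bulk in these comparisons (medians 1.02, 0.73, 1.13 and 0.97), and in the syn inputs 5 of 10 perivascular fibroblast genes were (median 0.89). Their part in the member values was not tested.

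Ly6a was the member higher in all 4 comparisons. It stood at 6.38, 7.22, 8.52 and 4.56 CPM in bulk WT and at 9.48, 7.62, 8.59 and 7.51 CPM in bulk KO. The syn inputs held 25.9, 17.4, 10.8 and 19.3 CPM, and the KO inputs 22.7, 27.3, 21.2 and 22.4 CPM. No input library overlapped its bulk group, the control and WT inputs given above included. The log2 fold changes were 1.38 (SE 0.26, adjusted p = 0.002) for control, 1.35 (SE 0.26, adjusted p = 0.0063) for syn, 2.16 (SE 0.30, adjusted p = 0.002) for WT and 1.48 (SE 0.10, adjusted p = 1.6e-06) for KO, and no left-out library ended any of these calls.

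Ly6c2, the near copy shown above, is no member but bears on the Ly6 reads. It had 0, 1, 2 and 0 counts in bulk WT and 1, 3, 0 and 0 in bulk KO. In inputs it was at 4.67, 2.25, 2.97 and 10 CPM for control, 13.2, 10.4, 2.8 and 10.4 CPM for syn, 12.1, 9.02, 6.03 and 24.6 CPM for WT and 5.84, 10.3, 15.1 and 8.78 CPM for KO. In every IP it was below 1 CPM. Ly6c1 was at 9.87 to 15.2 CPM in bulk and 10.6 to 20.8 CPM in inputs. Bulk libraries therefore held Ly6c1 with almost no reads given to Ly6c2, and all 16 input libraries held reads of both. The part of read assignment, of cohort and of tissue handling in this was not tested.

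**Figure D4:**
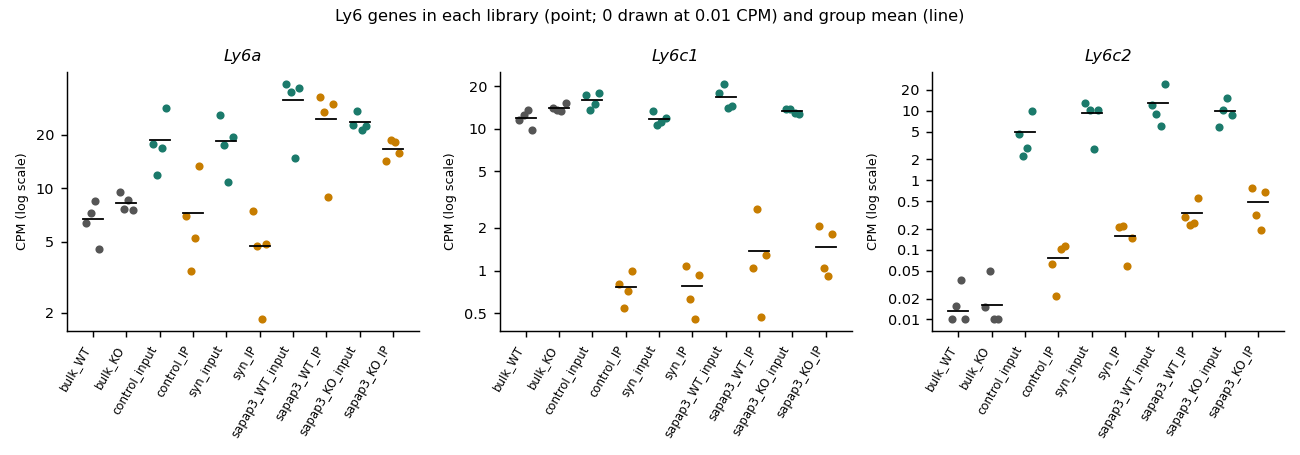
CPM of Ly6a, Ly6c1 and Ly6c2 in each library of the 10 groups, on a log axis. Ly6a and Ly6c2 are higher in every input group than in bulk, with Ly6c2 at 3 counts or fewer in each bulk library, whereas Ly6c1 is at similar levels in inputs and bulk.

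Vwf was higher in the control inputs (1.07, SE 0.17, adjusted p = 0.00074) and the WT inputs (1.37, SE 0.22, adjusted p = 0.0042) than in bulk WT. Bulk WT held 7.15, 7.74, 8.70 and 5.06 CPM, the control inputs 16.8, 13.7, 14.5 and 19.5 CPM and the WT inputs 24.3, 23.3, 12.9 and 16.8 CPM. Neither input group overlapped bulk, but the control value was 0.96 without control input replicate 4 and 0.94 without bulk WT replicate 4, and was then not called. Anpep, the pericyte peptidase, was lower in the control inputs (-1.04, SE 0.28, adjusted p = 0.012) and higher in the WT inputs (1.15, SE 0.24, adjusted p = 0.015) and KO inputs (1.505, SE 0.28, adjusted p = 0.0026). Its control value was -0.84 without control input replicate 2, -0.97 without bulk WT replicate 4 and -0.94 with libraries scaled to totals, none of them called. In WT its call was lost without WT input replicate 2 (1.00) or replicate 4 (1.04).

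The members with the smallest difference from bulk were Emcn (0.03) among the control inputs, Esam (0.04), Myh11 (-0.04) and Sox18 (0.04) among the syn inputs, Abcc9 (0.01) and Higd1b (-0.03) among the WT inputs, and Pecam1 (0.01) and Itm2a (0.02) among the KO inputs. Mfsd2a was on the low side of bulk in all 4 comparisons, at -0.57, -0.51, -0.86 and -0.42 with adjusted p from 0.0016 to 0.034, short of the fold limit in each.

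Whether loss of SAPAP3 altered vessel genes was tested in bulk, inputs and IPs. Dlgap3 itself was lower in each KO library than in each WT library of its kind. Bulk WT held 376, 385, 338 and 232 CPM and bulk KO 161, 153, 154 and 144 CPM. The inputs held 514, 395, 376 and 400 CPM in WT and 200, 188, 166 and 166 CPM in KO. The changes were -1.14 in bulk (adjusted p = 0.32), -1.19 in inputs (adjusted p = 0.007) and -1.40 in IPs (adjusted p = 0.028), with reads left over the gene in all KO libraries. In bulk the edgeR adjusted p was 0.001 without bulk WT replicate 4, and DESeq2 called the gene with all libraries. Leaving out KO input replicate 2, 3 or 4 lost the call in inputs (values over all left-out libraries -1.25 to -1.10), and leaving out any IP library but KO IP replicate 1 lost it in IPs (-1.57 to -1.29).

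No member was called in any of the 3 genotype comparisons by edgeR, DESeq2 or limma-voom. Over all genes edgeR called 0 of 16020 in bulk (0.0%, with 792 at an unadjusted p under 0.05 and 12 higher and 5 lower by DESeq2), 1 of 15591 in inputs (0.00641%) and 4 of 15198 in IPs (0.0263%), so few genes of any kind passed. The 95% intervals lay within -1 to 1 for 33 of 35 members in bulk, 33 of 35 in inputs and 26 of 31 in IPs. Icam2, Erg, Sox17 and Higd1b had too few counts to be tested between the IPs.

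In bulk, 5 members had an unadjusted p under 0.05, beside 4.94% of all genes, and all 5 were on the higher side in KO, where 2.70% of all genes were. In the order of that p they were Abcb1a (0.38, SE 0.10), Vwf (1.29, SE 0.36), Slco1a4 (0.37, SE 0.12), Flt1 (0.21) and Ly6c1 (0.22), each with an edgeR adjusted p = 0.98. Vwf stood at 26.1, 11.2, 24.8 and 8.69 CPM in bulk KO, so that replicates 1 and 3 were far above the other two, of which replicate 4 lay at the level of the highest bulk WT library. Abcb1a was at 13.4, 14.3, 12.2 and 10.6 CPM in WT and 16.5, 19.1, 15.9 and 15.5 CPM in KO, without overlap. Without bulk WT replicate 4 the values were 0.31 for Abcb1a, 0.27 for Slco1a4 and 1.16 for Vwf. The member median was 0.13. The red blood cell genes tested, Alas2 (0.68, SE 0.22) and Slc4a1 (1.51, SE 0.55), both had an unadjusted p under 0.05 on the higher side in bulk KO, each with an edgeR adjusted p = 0.98, and the groups did not overlap for Alas2. Their part in the member values was not tested.

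In the inputs the sign was the other one. An unadjusted p under 0.05 was reached by 15 members, beside 5.57% of all genes, and all 15 were on the lower side in KO, where 2.75% of all genes were. Genes of the same vessel cells can vary together from library to library, here and in bulk, so these members are not independent results. The count keeps WT input replicate 1, the highest of its group for summed endothelial and mural RNA. First by that p were Ocln (-0.40, SE 0.13), Pdgfrb (-0.21, SE 0.07) and Abcb1a (-0.30, SE 0.10), each with an edgeR adjusted p = 0.73. Ocln was at 7.42, 8.11, 6.5 and 6.68 CPM in WT and 5.38, 5.49, 6.09 and 4.32 CPM in KO. Abcb1a was at 20.8, 21.9, 19.1 and 18.8 CPM in WT and 16.2, 18.4, 16.1 and 13.4 CPM in KO. Both genes were separated by a narrow gap only. Without WT input replicate 1 the values were -0.39, -0.18 and -0.29, and the member median with all libraries was -0.29.

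Endothelial sums, which add up the same genes and so are no separate result, went the same way. They were 396, 364, 296 and 329 CPM in the WT inputs and 298, 314, 280 and 249 CPM in the KO inputs, and 240, 243, 230 and 182 CPM in bulk WT and 267, 251, 261 and 264 CPM in bulk KO. The groups overlapped in the inputs and did not in bulk, where replicate 4 was the low WT library. The change of the genotype difference between inputs and bulk had an unadjusted p under 0.05 for 14 members, 13 lower and 1 higher, beside 5.58% of all genes. First by that p were Abcb1a (-0.69, SE 0.15), Slco1a4 (-0.70, SE 0.18) and Ocln (-0.63, SE 0.18), all with an edgeR adjusted p = 0.86. None was called by edgeR, DESeq2 or limma-voom, nor was any gene of the whole table by edgeR (0.0%). The inputs and bulk libraries also differ in labelled strain and in cohort, which cannot be told apart from the fraction. Xist RNA was at most 0.0331 CPM in bulk KO but high in single libraries of bulk WT and of both input groups. Xist was not fitted as a covariate in this difference, so the part of sex was not tested.

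**Figure D5:**
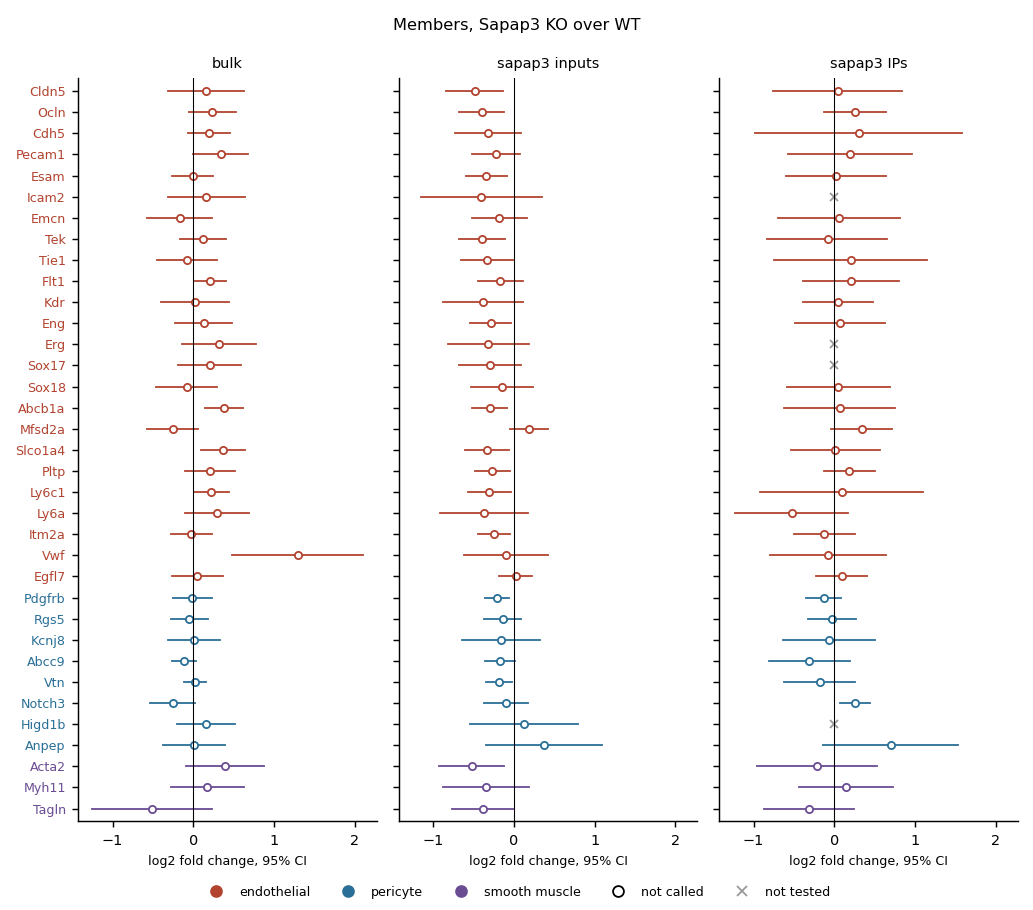
Log2 fold change of KO over WT for each member in bulk, inputs and IPs, with 95% intervals. Endothelial values tend above 0 in bulk (endothelial median 0.18) and below 0 in inputs (endothelial median -0.3), and no member passed the adjusted test.

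In the IPs 1 member of 31 had an unadjusted p under 0.05, beside 2.63% of all genes. It was Notch3, at 0.25 (SE 0.08). Mfsd2a (0.34, SE 0.17) and Anpep (0.70, SE 0.38) came next, all 3 with an edgeR adjusted p = 1.0. Mfsd2a was at 35.6, 36.3, 35.4 and 47.2 CPM in the WT IPs and 36.1, 39.2, 59.8 and 57.7 CPM in the KO IPs, which overlap. Outside the IPs Mfsd2a changed by -0.26 in bulk and 0.19 in inputs. Tie1 changed by -0.08, -0.33 and 0.20 in bulk, inputs and IPs. Tie1 and Mfsd2a lie 8.68 and 4.21 Mb from Dlgap3 on chromosome 4, and Tek lies 32.29 Mb from it.

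The genotype difference in the change of IP over input was not called for any member by edgeR, DESeq2 or limma-voom, nor for any gene by edgeR (0.0%), and 3 members had an unadjusted p under 0.05, beside 1.26% of all genes. They were Ocln (0.65, SE 0.22), Pltp (0.45, SE 0.19) and Notch3 (0.35, SE 0.15), each with an edgeR adjusted p = 1.0 and each on the higher side in KO. The member median was 0.33. All 10 microglial markers had positive values in this difference (median 0.87, range 0.40 to 1.23), each with an edgeR adjusted p = 1.0, and 1 of them, Tyrobp, had an unadjusted p under 0.05. Their part in the member values was not tested.

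Ligands that act on vessel cells, whether made by vessel cells or by others, were measured in the same IPs. Of 15 vascular ligands, 6 rose and 4 fell in the astrocyte IP, beside 13.4% and 13.5% of all genes tested. The risers were Wnt7b (2.38) and Wnt7a (1.00), which induce the barrier, the norrin gene Ndp (2.17), the Tie2 ligand gene Angpt1 (2.16), the apelin gene Apln (1.91) and the placental growth factor gene Pgf (1.84). Those that fell were Tgfb1 (-2.43), the Notch ligand gene Dll4 (-2.26), and Angpt2 and Pdgfb, both at -1.88. Which cells the ligand RNA came from was not tested. Vegfa (0.27), Vegfb (-0.29), Vegfc (-0.02), Pdgfd (0.59) and Jag1 (-0.19) were not called. Wnt7a was at the limit, with 0.98 without control input replicate 4, 1.00 without control IP replicate 2 and 0.78 with libraries scaled to totals.

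In the neuron IP 6 ligands fell, beside 15.8% of all genes tested. They were Tgfb1 (-3.49), Angpt2 (-1.96), Pdgfd (-1.64), Apln (-1.59), Dll4 (-1.45) and Ndp (-1.30). Angpt1 (0.13), Wnt7a (0.08), Jag1 (0.40), Pgf (-0.03), Wnt7b (-0.25), Pdgfb (-0.41), Vegfc (-0.53), Vegfa (-0.78) and Vegfb (-0.99) were not called. In the test of the difference between the 2 IPs Apln (3.51) and Ndp (3.47) were highest and Pdgfb (-1.46) lowest. In the sapap3 IPs 7 ligands rose in both genotypes, the 6 of the astrocyte IP and Pdgfd (1.14 in WT and 1.28 in KO). Of all genes tested, 10.9% rose in WT and 12.3% in KO. In WT 4 ligands fell, as in the astrocyte IP, and in KO 3, since Angpt2 was at -0.62. Of all genes 12.1% and 11.5% fell. None of the 15 ligands was called between genotypes in bulk, inputs or IPs by edgeR, DESeq2 or limma-voom. An unadjusted edgeR p under 0.05 was reached by 2, both in inputs, where 5.57% of all genes reached it.

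Other genes of the vessel wall gave a mixed picture in the astrocyte IP. Over all genes tested, 13.4% rose and 13.5% fell in that IP, and 0.42% rose and 15.8% fell in the neuron IP. Of 22 further barrier and vascular response genes 2 rose and 7 fell, with a median of -0.40, and in the neuron IP 12 fell and the other 10 were not called. Of 13 further pericyte and smooth muscle genes tested, 3 rose and 6 fell, led by Foxf2 (-3.63), Ndufa4l2 (-2.91) and the endothelin receptor gene Ednra (2.78). Of 10 genes of the vascular basement membrane 4 rose and 1 fell, the risers led by the laminin genes Lamb2 (2.16) and Lama2 (1.94). In the neuron IP 5 basement membrane genes fell and 5 were not called. Markers of cells beside the vessel fell, with 9 of 10 perivascular fibroblast genes (median -2.32), all 5 perivascular macrophage genes tested (median -4.60) and 10 of 10 microglial genes (median -5.61) lower in the astrocyte IP. In that IP 2 of 10 neuron markers and 1 of 10 oligodendrocyte markers were lower. Of the 6 markers of choroid plexus and ependyma tested there, 4 rose and 2 fell (median 1.94), and of 6 markers of oligodendrocyte precursors 1 rose (median 0.12). Their part in the values of the members was not tested. Of the red blood cell genes only Alas2 had enough counts to be tested and it changed by -5.67. The depletion of the endothelial members, with a median of -3.39, thus lay between those of the fibroblast and macrophage lists.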

How the data were processed

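Counts per gene symbol were deposited by the authors as whole numbers, 1 column a library, not normalized. The sources used here name STAR, HTSeq and build mm10, and give neither the strand setting nor the handling of reads with several alignments. The labels name a stranded TruSeq kit and the methods another kit.

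From these counts CPM and, with RefSeq exon lengths, FPKM were computed. edgeR 4.0.16 (quasi-likelihood test, TMM scaling, filterByExpr) was fitted to all genes of the groups compared, with Benjamini-Hochberg adjustment, and checked on simulated counts. The 35 members and all lists were chosen with earlier results of these data known. Full statistics are given for the 3 endothelial and 3 mural called genes of largest change, the 3 members nearest 0, and between genotypes the called genes or the 3 of smallest p, with Tie1 and Mfsd2a. Replicates are 4 libraries a group (60 pairs, chi-square per degree of freedom 3.72 to 133, so none was a copy).

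IP and input with the same number deviated together, each pair with a correlation above 0.1. Mean correlations were 0.449, 0.652, 0.608 and 0.517 in the control, syn, WT and KO cohorts. The pairing rests on the animal labels, except in the syn cohort, where titles share numbers and animal labels differ. There the correlation does not show that input and IP came from the same mouse. The main tests, with their SE, intervals and p-values, left this pairing out. It entered only in the replicate block. Alternatives were library totals, RLE scaling, DESeq2 1.42.0, limma-voom (limma 3.58.1), no filter, FPKM above 5 in 4 libraries, a replicate block, Xist as covariate, all sapap3 groups in 1 model, and each library left out. Intervals on counts cover counting error only.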

Additional observations from a re-analysis of the deposited data

Results flagged for a closer look

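In groups of 4, a library was singled out when its gap to the nearest other library exceeded Dixon's 95% critical share of the group's range. This held in 30 of 370 groups checked (8.11%), where chance gives about 1 in 20. All values here are CPM, with the range of the other 3 libraries after the word against.

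Among junction genes these were Cldn5 in control IP replicate 4 (1.29 against 0.716 to 0.765) and in sapap3 KO IP replicate 1 (1.97 against 0.92 to 1.06), Pecam1 in sapap3 WT input replicate 1 (20.8 against 15 to 15.5) and KO input replicate 4 (10.8 against 14.6 to 15.3), and Emcn in syn IP replicate 2 (0.962 against 0.78 to 0.806). Among receptors they were Flt1 in WT IP replicate 2 (4.68 against 2.85 to 3.15) and bulk KO replicate 1 (25 against 22.1 to 22.6), Kdr in KO IP replicate 2 (1.55 against 2.52 to 2.69), and Eng in WT IP replicate 4 (1.82 against 1.19 to 1.26) and syn input replicate 1 (11.1 against 9.63 to 9.75). The other endothelial values were Sox18 in WT input replicate 4 (3.11 against 2.51 to 2.6), Mfsd2a in WT IP replicate 4 (47.2 against 35.4 to 36.3), Ly6a in WT input replicate 3 (14.7 against 34.9 to 38.6) and Vwf in syn input replicate 1 (17.9 against 13.4 to 14.0).

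Among pericyte genes replicate 2 stood apart for Rgs5 in control input (20.6 against 25.1 to 25.3), control IP (6.88 against 7.65 to 7.73) and syn input (18.6 against 22.0 to 22.2), for Vtn in control input (63.1 against 58.6 to 58.8) and control IP (12.6 against 14.1), and for Abcc9 in syn input (11.9 against 14.0 to 14.4). The others were Abcc9 in control input replicate 3 (10.5 against 11.8 to 12), Vtn in WT input replicate 1 (61.2 against 48.6 to 49.3), Higd1b in replicate 1 of the WT IP (0.213 against 0.137 to 0.149) and of the KO IP (0.336 against 0.145 to 0.148), and Anpep in KO input replicate 2 (3.81 against 1.56 to 1.86) and bulk KO replicate 3 (0.64 against 0.823 to 0.848). Summed members stood apart in syn IP replicate 3 for the endothelial genes (66.5 against 79.6 to 82.2), and for the mural genes in control IP replicate 2 (163 against 170.0 to 171), WT input replicate 1 (173 against 143 to 147) and bulk KO replicate 4 (133 against 124 to 126).

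The change of IP over input differed between the astrocyte and neuron cohorts by edgeR's test of the difference for 11 members that were higher and 12 that were lower, beside 34.3% and 35.8% of all genes. The 10 of smallest p, as log2 differences, were Notch3 (3.00), Pdgfrb (2.52), Mfsd2a (2.61), Egfl7 (-1.15), Pltp (1.96), Itm2a (-0.90), Vtn (-0.83), Emcn (-1.59), Esam (-1.27) and Kcnj8 (-1.38).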

How the results depend on the processing

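RLE scaling, DESeq2, limma-voom, no filter and the replicate block left every count of called members within 1.5 times of its main value. Scaling to library totals lowered IP over input by 0.22 (control), 0.21 (syn), 0.17 (WT) and 0.20 (KO) over all genes and raised inputs over bulk by 0.10, 0.12, 0.06 and 0.01. The members called higher then went to 0 in the syn IP and 2 in the WT IP, those lower in control inputs to 0 and those higher in syn inputs to 2, and the sign changed for Angpt1 (-0.073) and Wnt7a (-0.12) in the syn IP, Ocln in the KO IP (-0.14), Myh11 in syn inputs (0.074) and Higd1b in WT inputs (0.024). The FPKM limit left 12, 10, 10 and 10 members to test in the control, syn, WT and KO IPs, so that counts lower were 8, 7, 5 and 4 and counts higher in the syn, WT and KO IPs 0, 2 and 3. It left 1 member higher and 0 lower in control inputs, 1 higher in WT and KO inputs, and 4 higher and 5 lower in the difference between astrocyte and neuron IPs, and Wnt7a in the syn IP was at -0.10. Members near 0 changed sign elsewhere, namely Abcc9 and Kcnj8 in WT inputs by RLE and DESeq2 (-0.007 and -0.017) and with no filter (-0.011 and -0.019), Vegfc in the control IP (0.005), Egfl7 in the syn IP (0.003), Pecam1 (-0.006) and Rgs5 (-0.009) in KO inputs with no filter, Myh11 in syn inputs by limma-voom (0.011) and Tie1 in IPs with Xist as a covariate (-0.011).

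With each library left out in turn, the members called ranged from 1 to 2 higher and 0 to 1 lower in control inputs, 1 to 2 higher in syn inputs, 2 to 5 higher in WT inputs and 2 to 5 higher in the WT IP. The 5 in WT inputs came without bulk WT replicate 1 and the 2 in the WT IP without WT IP replicate 4. Signs changed within these ranges: Vegfc in the control IP -0.17 to 0.12, Egfl7 -0.049 to 0.026, Pgf -0.172 to 0.073 and Wnt7a -0.051 to 0.197 in the syn IP, Jag1 -0.28 to 0.14 and Ly6a -0.402 to 0.092 in the WT IP, Ocln -0.039 to 0.178 in the KO IP, Emcn -0.075 to 0.216 in control inputs, Esam -0.026 to 0.143, Myh11 -0.14 to 0.15 and Sox18 -0.14 to 0.17 in syn inputs, Abcc9 -0.026 to 0.039, Higd1b -0.21 to 0.16 and Kcnj8 -0.103 to 0.094 in WT inputs, Itm2a -0.004 to 0.044, Pecam1 -0.041 to 0.106 and Rgs5 -0.068 to 0.085 in KO inputs, and Tie1 -0.202 to 0.039 in bulk and -0.23 to 0.59 in IPs between genotypes. Of 2152 values, 14 gained a call, 42 lost one and 52 changed sign. The cause was not tested.

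With the replicate block Acta2 in the syn IP was called (-1.0, adjusted p = 0.00011, against -0.97 and 0.01) and Tagln in the WT IP was not (0.98 against 1.00). With the block Tek (0.47) lost and Ly6a (0.60) gained a call in the difference between astrocyte and neuron IPs, and no other member's call changed. Between genotypes, and between inputs and bulk, the labels share at most 1 animal number, that of bulk WT and KO replicate 1, so no block was fitted. Dlgap3 lost its call between WT and KO inputs without KO input replicate 2, 3 or 4 and between IPs in all left-out settings but 1. Counts under 10 in the IPs limit Icam2, Erg, Sox17, Sox18, Higd1b, Cdh5 and Anpep.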

Other observations

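Over the 40 libraries, the genes that are no members and whose log2 CPM followed the summed endothelial CPM most closely were 4632428N05Rik (Pearson r 0.961), Slc25a45 (0.956), Chuk (0.954), Itpripl1 (0.949) and Unc93b1 (0.944), of 13995 genes compared. For the summed mural CPM they were Ctdsp1 (0.907), Wfdc1 (0.906), Vmac (0.906), Rnpepl1 (0.899) and Nkd1 (0.898). The 40 points are not independent, as they fall into 10 groups that share fraction, cohort and depth, and an input and its IP are paired, so these values only describe the libraries.

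Xist RNA varied within the sapap3 and bulk groups. The highest library held 184 CPM among WT inputs, 246 CPM among KO inputs and 197 CPM in bulk WT, where the group medians were 0.13, 1.97 and 1.20 CPM. In bulk KO the highest was 0.0331 CPM. With Xist as a covariate no member was called between genotypes in bulk, inputs or IPs.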
